A study of Komagataella phaffii with 18 samples.

Results

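The α-type strain of Komagataella phaffii was compared in acetate medium and in YPD, a rich medium, by sequencing of polyadenylated RNA. The comparison takes in 6 of the 18 libraries of the study, chosen by the strain and the medium in their labels: 3 of α-type cells in acetate medium and 3 of α-type cells in YPD. All of the libraries come from the strain background CBS2612. The α-type genotype is written dic1-2Δ(α), which the labels do not spell out, and called heterothallic, and the other groups used here are the wild type and the heterothallic a-type, written dic1-2Δ(a), each with 3 libraries in acetate medium and 3 in YPD. YPD cells were taken while the cultures grew exponentially, and the acetate cells came from these cultures after a further 24 h in acetate medium, a step meant to switch on mating genes. Medium, time and growth phase differed together, so their effects cannot be told apart. Each type was 1 strain, and nothing states that the 3 libraries of a group came from separate cultures, so p-values here reflect only how far these samples lie apart, which could be technical.

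Komagataella phaffii is a methylotrophic yeast, able to grow on methanol. Its wild type is homothallic: a cell can change its mating type, so a culture can come to hold both a and α cells, which mate when nutrients are scarce. A heterothallic strain keeps a single type, so that a culture of it holds no partner. In the better known yeast Saccharomyces cerevisiae, α cells secrete α-factor and carry a receptor for the pheromone of a cells, and growth on acetate calls on acetyl-CoA synthetase, the glyoxylate cycle and gluconeogenesis in place of glycolysis. The features in the tables carry IDs and no gene names: 0 of 5341 IDs matched the reference gene table, whose 5040 genes belong to another strain. No pathway, pheromone or mating-type gene could therefore be identified, the label α-type was not checked against marker genes, and features are described by ID, level and coding length.

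Total estimated counts were 686910 to 765524 in the α-type acetate libraries and 263106 to 298856 in the α-type YPD libraries, a mean ratio of 2.52. Counts were found for 5258 to 5285 features in an acetate library and for 5036 to 5103 in a YPD library. At equal depth, with each library thinned to 234042 counts, the ranges overlapped, at 4952 to 5006 features in acetate and 5003 to 5053 in YPD. A count of 0 in 1 library allows up to 3.72 to 4.29 CPM (counts scaled to library size) in acetate and 9.45 to 11.4 CPM in YPD, which is 3 counts and covers counting error only. The acetate replicates lay closer together than the YPD replicates. Their biological coefficient of variation, the spread beyond counting error, was 11.4% in acetate and 31.9% in YPD, and replicate pairs correlated across features at 0.967 to 0.97 and at 0.872 to 0.906. Counting error lowers such correlations more in the shallower YPD libraries, and they were not taken at equal depth. The joint fit uses 1 spread for both media.

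The levels of 2004 of the 4783 features tested differed between acetate and YPD. In acetate 1066 features were higher than in YPD, which is 22.3% of those tested, and 938 were lower, which is 19.6% (edgeR quasi-likelihood test, adjusted p below 0.05). The acetate libraries lay all above the YPD libraries for 1048 of the higher features, and all below for 889 of the lower ones. Over all features tested, the libraries were separated upward for 29.3% and downward for 25.2%. The higher features had a median log2 fold change of 1.65 and the lower ones of -1.51, beside 0.045 over all features tested. The large changes were mostly gains: 374 features were higher and 244 lower by a log2 fold change of at least 2, 68 were higher and 22 lower by at least 4, and 28 were higher and 5 lower by at least 5. The 95% interval of a log2 fold change reached a median of 0.80 to each side, and the other 2779 features, 58.1%, are those whose change could not be told from 0 at this depth. RNA was measured in bulk, so fewer cells with a transcript and less of it per cell cannot be told apart.

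**Figure D1:**
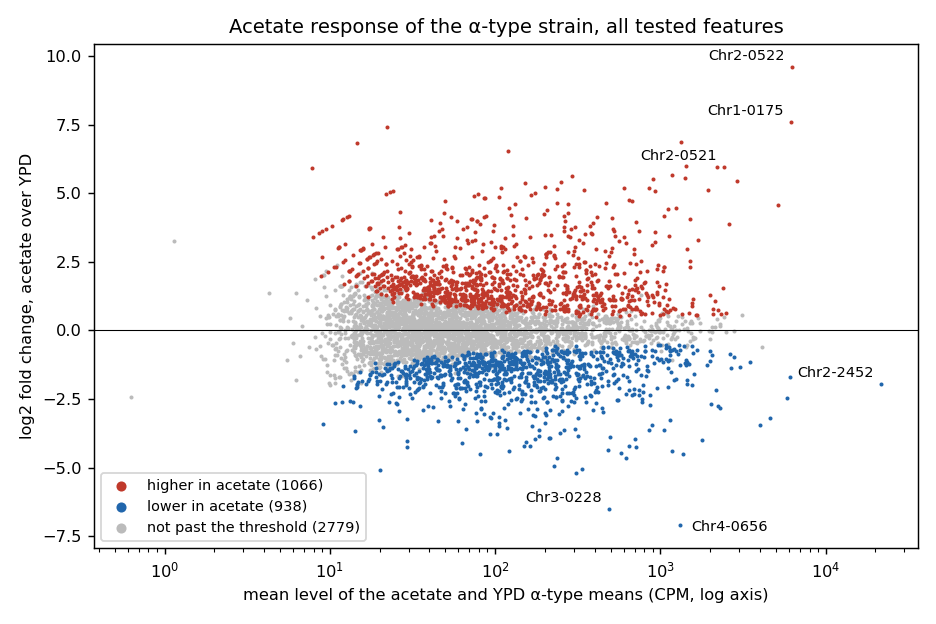
Log2 fold change, acetate over YPD, against the mean level in CPM (log axis) for the features tested in α-type; each point is 1 feature, red and blue points passed the threshold, and 2 features with 0 counts in all 6 libraries are not drawn. The 1066 higher features reach a log2 fold change of 9.60, while the 938 lower ones reach -7.10.

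Features named for their change in CPM or TPM had to have acetate and YPD libraries that do not overlap, so this separation is no result. The feature with the strongest rise was PP7435_Chr2-0522, with a coding length of 1197. It had 11695, 13364 and 12508 CPM in the acetate libraries, against 15.8, 15.1 and 16.6 CPM in the YPD libraries. It thus lay close to the floor in YPD, with 14 counts over the 3 libraries, and among the most abundant features in acetate. Its log2 fold change was 9.60 (SE 0.34, adjusted p = 5.23e-17). Next was PP7435_Chr1-0175, a longer feature of 2460 bases, with 13212, 11353 and 12460 CPM in acetate, against 53.6, 60.6 and 76.2 CPM in YPD. The groups are far apart, and the log2 fold change was 7.60 (SE 0.24, adjusted p = 2.85e-16).

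Per length, the largest gain belonged to PP7435_Chr2-0521, whose number is next to that of PP7435_Chr2-0522 on chromosome 2. It had 18240, 19615 and 18247 TPM (transcript abundance scaled by length and library) in acetate, against 179, 281 and 289 TPM in YPD. All 3 acetate libraries were high. In CPM its acetate values were 4713, 5079 and 4611 and its YPD values 53.6, 83.3 and 96.0, and the log2 fold change was 5.95 (SE 0.33, adjusted p = 6.95e-12). PP7435_Chr2-0522 made the next largest gain, at 9509 ± 764 TPM in acetate and 10.3 ± 0.431 TPM in YPD (SD, n = 3 each).

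The strongest fall was that of PP7435_Chr4-0656, with a coding length of 774. It had 25.7, 22.3 and 8.44 CPM in acetate, against 2691, 1734 and 3434 CPM in YPD. The groups do not overlap, as the rule for naming required, and the third acetate library was the lowest. Its log2 fold change was -7.10 (SE 0.47, adjusted p = 8.52e-11). In wild type it fell less far, at 161 ± 54.8 CPM in acetate and 2006 ± 966 CPM in YPD (SD, n = 3 each), and the difference in response, α-type minus wild type, was -3.45 (SE 0.60, adjusted p = 0.000547). In a-type it had 19.1 ± 2.39 CPM in acetate and 2404 ± 1199 CPM in YPD, with a difference whose 95% interval ran from -1.52 to 1.23. The shorter PP7435_Chr3-0228 (513 bases) had 10.01, 7.44 and 14.1 CPM in acetate, against 596, 1113 and 1215 CPM in YPD, where the first library was the lowest. The log2 fold change was -6.51 (SE 0.71, adjusted p = 4.37e-08).

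The largest losses per length were those of abundant features. PP7435_Chr2-2452, a short feature of 486 bases, was the most abundant feature in all 6 libraries. It had 33052, 33604 and 31404 TPM in acetate, against 98039, 98396 and 120849 TPM in YPD. It stayed at the top in acetate at a lower level in every library, with a fall of -1.96 on the log2 scale (SE 0.27, adjusted p = 4.47e-06), at 8826 ± 415 CPM in acetate and 34451 ± 6471 CPM in YPD. PP7435_Chr3-0845, at 180 bases the shortest feature named, had 2991, 2188 and 2736 TPM in acetate, against 22350, 13879 and 26223 TPM in YPD. The acetate libraries were all low, and the log2 fold change was -3.28 (SE 0.23, adjusted p = 2.32e-10).

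Some features were detected in acetate and not in YPD. Of all 5341 features, 62 had 0 counts in the 3 YPD libraries, and 31 of these had counts in each acetate library, while 23 had 0 counts in acetate and 0 of these had counts in each YPD library. The acetate libraries were deeper, and the part of depth in these counts was not tested. Of the 62 features 6 were tested and 3 of these were higher in acetate. With 0 counts in YPD α-type, the 6 passed the filter on low counts only through other libraries. This count, and the adjusted p-values of the 3 features for acetate over YPD in α-type, are therefore a description. PP7435_Chr1-0881 had 28.6, 60.8 and 43.6 CPM in acetate and 0 counts in YPD, at least 13.3-fold higher against a floor of 3 counts over the YPD group, which is 3.40 CPM (adjusted p = 8.84e-05). PP7435_Chr4-0801 had 24.3, 34.7 and 28.1 CPM in acetate and 0 counts in YPD, at least 8.64-fold higher (adjusted p = 0.000194). The remaining one, PP7435_Chr3-0863, named after its values were seen, had 17.2, 11.2 and 18.3 CPM in acetate and 0 counts in YPD, at least 4.52-fold higher (adjusted p = 0.000604). In YPD all 3 had counts in the other strains. In the order named, these were 13, 3 and 3 counts over the wild-type libraries and 9, 4 and 2 over the a-type ones. In a-type all 3 rose (adjusted p = 0.00321, 0.00475 and 0.0154). PP7435_Chr4-0801 and PP7435_Chr3-0863 also rose in wild type (adjusted p = 0.0147 and 7.71e-07). PP7435_Chr1-0881 had 42.4, 27.4 and 47.1 CPM in acetate wild type, against 17.1, 24.1 and 4.61 CPM in YPD wild type. Its test of the difference from wild type did not pass (adjusted p = 0.0542), though it did with DESeq2 (adjusted p = 0.014), with upper-quartile scaling (adjusted p = 0.046) and without the third YPD wild-type library (adjusted p = 0.0411).

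In the other direction, 13 features that fell had under 5 CPM on average in acetate. PP7435_Chr3-2183 had 0, 4.96 and 2.81 CPM in acetate, against 41.0, 83.3 and 43.0 CPM in YPD. Its log2 fold change was -4.23 (SE 0.84, adjusted p = 3.09e-05). PP7435_Chr4-0653 had 4.29, 3.72 and 1.41 CPM in acetate, against 72.5, 41.6 and 53.0 CPM in YPD (log2 fold change -4.04, SE 0.71, adjusted p = 8.03e-06). In acetate they rest on 6 and 7 counts over the group, so the size of these falls is known less well than their direction.

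Few features could be called steady at this precision. Of the 2392 tested features at or above the median level, 23 had a 95% interval that held 0 and lay within a log2 fold change of 0.5 to either side of it. Over all features tested the interval reached a median of 0.80 to each side, more than this bound, so precision limits the count. PP7435_Chr4-0019, with a coding length of 4047, had 2362, 2423 and 2540 CPM in acetate, against 2710, 2335 and 2659 CPM in YPD, and its interval ran from -0.46 to 0.32. PP7435_Chr3-0601 had 1011, 944 and 1019 CPM in acetate, against 1059, 886 and 881 CPM in YPD, with an interval of -0.32 to 0.46. The groups overlap for both features.

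**Figure D2:**
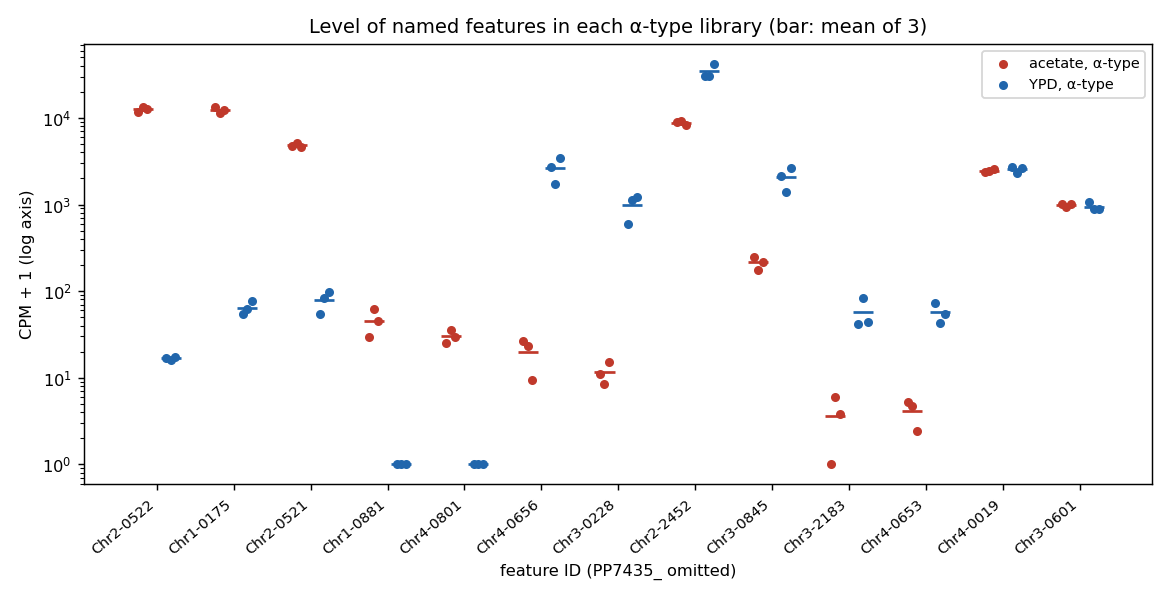
Level (CPM + 1, log axis) of 13 named features in each α-type library; red points are acetate, blue points YPD, and bars the means of 3 libraries. The groups do not overlap except for the 2 steady features at the right, and 2 features lie at 0 counts in all YPD libraries. Features named for a change in CPM or TPM had to have separate groups, so their separation is no result.

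Transcripts were spread over more features in acetate than in YPD. The 10 most abundant features held 10.5%, 10.6% and 10.1% of all TPM in the acetate libraries, against 18.4%, 19.1% and 19.9% in the YPD libraries. The 100 most abundant held 32.1%, 31.2% and 31.5% in acetate, against 38.6%, 40.7% and 40.3% in YPD. All acetate libraries were lower for both shares. The differences were -8.73 and -8.27 percentage points, each with an exact permutation p of 0.1, two-sided, which is the smallest that 3 against 3 libraries allow. PP7435_Chr2-2452 alone held 3.31%, 3.36% and 3.14% in acetate, against 9.80%, 9.84% and 12.1% in YPD. For the features ranked next after it, the differences were -1.43 points for 10 features (exact permutation p = 0.1) and -1.0 points for 100 (exact permutation p = 0.4). Counted in points of all TPM, most of the difference thus lay in this feature. These shares keep PP7435_Chr2-2452 in the total, where its larger part in YPD lowers the share of all other features. Shares of the TPM that remain without it were not tested.

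**Figure D3:**
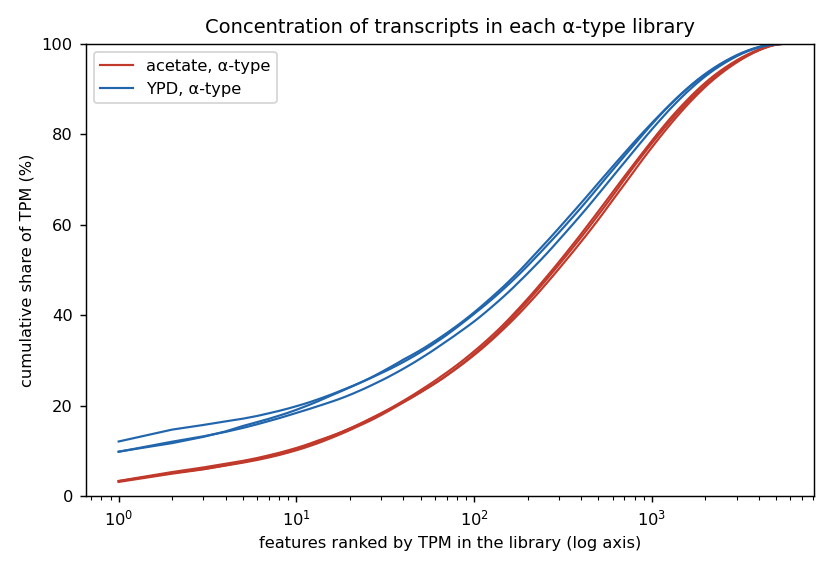
Cumulative share of TPM (%) held by the most abundant features, ranked within each library (log axis), with 1 line per α-type library in acetate (red) and YPD (blue). The acetate lines start at 3.14% to 3.36% and lie under the YPD lines, which start at 9.80% to 12.1%.

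The features that passed the test held a large part of the transcripts. Those higher in acetate took 37.8%, 37.3% and 37.9% of TPM in the acetate libraries, against 9.60%, 9.72% and 8.19% in the YPD libraries. Those lower in acetate took 21.9%, 21.5% and 21.3% in acetate, against 53.4%, 56.1% and 56.5% in YPD. These features were chosen on the same libraries, so the shares are a description. Features that did not pass held 39.2% to 39.9% in acetate and 33.3% to 36.0% in YPD.

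Calls were made on all 4 chromosomes named in the IDs. On chromosome 1, 24.5% of 1467 tested features were higher and 17.6% lower, while on chromosome 4 20.6% of 938 were higher and 20.6% lower, and chromosomes 2 and 3 lay between for the higher share. Of the 3 mitochondrial features tested 0 passed. Short features leaned downward. In the shortest quartile of coding length, 126 to 798 bases, 15.9% were higher and 25.4% lower (median log2 fold change -0.22), and in the longest, 1857 to 14853 bases, 24.9% were higher and 15.7% lower (median 0.21). The median level rose with length in these quartiles, at 52.2 CPM in the shortest and 81.6 CPM in the longest, and its part in the lean was not tested. By level, 15.0% were higher and 7.69% lower in the lowest quartile, and 30.3% were higher and 31.5% lower in the highest.

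Features next to a called one by ID number passed in the same direction a little more often than all features tested, which was not tested. Of 1065 higher features followed by another tested one, 294 had a higher feature next, 27.6% beside 22.3% of all tested. Of 936 lower ones 244 had a lower feature next, 26.1% beside 19.6%. Long runs were few. Counting features in the order of their numbers, 1 run of 5 features was higher throughout, PP7435_Chr3-0561 to PP7435_Chr3-0565, and 6 runs of 5 or more were lower, of which PP7435_Chr2-1286 to PP7435_Chr2-1293 held 6 tested features with a median log2 fold change of -1.56. These runs were named after their values were seen.

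Most of the acetate response of α-type was also seen in wild type and in a-type, which were compared over libraries of their own. Of the 1066 features higher in α-type, 778 also rose in wild type, which is 73.0% of the α-type list and 63.6% of the 1224 features that rose in wild type (25.6% of those tested). In a-type 802 of them rose, which is 75.2% of the α-type list and 82.5% of the 972 that rose there (20.3% of those tested). Of the 938 features lower in α-type, 719 fell in wild type, which is 76.7% of the α-type list and 64.5% of the 1115 that fell there (23.3% of those tested). In a-type 713 of them fell, 76.0% of the α-type list and 77.7% of the 918 that fell there (19.2% of those tested). The α-type list showed opposite calls in wild type for 3 of the higher and 18 of the lower features, and in a-type for 0 of either. The acetate level of PP7435_Chr1-0175 was 12342 ± 935 CPM (α-type), 12699 ± 1260 CPM (wild type) and 11560 ± 1245 CPM (a-type; SD, n = 3 each), and its difference in response had a 95% interval of -1.22 to 0.25 against wild type and -0.63 to 0.77 against a-type. PP7435_Chr3-0845 had log2 fold changes of -3.28 in α-type, -3.05 in wild type and -2.99 in a-type.

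Whether a response differed from that of wild type was tested directly, as the difference between the log2 fold changes of the strains (interaction test in edgeR). The response was higher in α-type for 36 features, 0.753% of those tested, and lower for 163, 3.41%. Of the 163, 81 rose in wild type and did not pass in α-type, 41 rose in both, 18 fell in α-type and rose in wild type, 17 fell in α-type and did not pass in wild type, and 6 fell in both. Their median log2 fold change was 0.05 in α-type and 2.44 in wild type. In acetate their median level was 107 CPM for α-type and 500 CPM for wild type, beside 96.4 CPM for α-type and 82.6 CPM for wild type in YPD. The acetate libraries of the strains did not overlap for 161 of them, 98.8% beside 38.6% of all features tested, and the YPD libraries for 32, 19.6% beside 9.72%. These features were chosen by this test, which uses both media, so the medians and these shares are a description. For the 81 features with no call in α-type, the 95% interval of the α-type change stayed below a log2 fold change of 1 in 55 and below 2 in 79. Upper-quartile scaling gave 68 higher and 119 lower, so that 36.4% in place of 18.1% of the calls were higher in α-type, and it moved the median difference of all features to 0.28, beside 0.06 with TMM scaling. Without the second acetate wild-type library 22 were higher, and without the second YPD α-type library 65.

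The a-type response did not enter that choice, though the a-type libraries were part of the fit and shared its filter, scaling and estimate of spread. For the a-type strain, the medians of the 3 largest of these classes lay nearer to those of α-type than to those of wild type. Over all features tested, 20.3% rose and 19.2% fell in a-type. The 18 features that fell in α-type and rose in wild type had median log2 fold changes of -1.42 in α-type, 2.03 in wild type and -1.13 in a-type, where 14 fell, 4 did not pass and 0 rose. The 81 that rose in wild type and did not pass in α-type had a median of 0.05 in α-type, 2.44 in wild type and 0.10 in a-type, where 9 rose, 68 did not pass and 4 fell, both shares being below those of all features. The 41 that rose in both had a median of 1.35 in α-type, 4.0 in wild type and 1.06 in a-type, where 28 rose and 13 did not pass.

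Of the features that fell in α-type and rose in wild type, PP7435_Chr3-0555, chosen after its values were seen, moved the most in α-type. It had 51.5, 50.8 and 39.4 CPM in acetate α-type, against 1305, 1503 and 765 CPM in YPD α-type. In acetate wild type it had 4363, 5926 and 5136 CPM, against 970, 1165 and 895 CPM in YPD wild type. The YPD levels of the strains overlap, while the acetate levels lie to either side of them. Its log2 fold change was -4.65 in α-type (SE 0.30, adjusted p = 5.84e-11) and 2.35 in wild type (SE 0.26, adjusted p = 1.65e-07), a difference of -6.99 (adjusted p = 5.87e-11). In a-type it also fell, with 52.5 ± 12.6 CPM in acetate and 1058 ± 419 CPM in YPD (SD, n = 3 each).

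PP7435_Chr1-0699, likewise chosen after its values were seen, followed the same order. It had 31.5, 31.0 and 39.4 CPM in acetate α-type, against 501, 443 and 434 CPM in YPD α-type, and 2501, 3599 and 3116 CPM in acetate wild type, against 665, 433 and 738 CPM in YPD wild type. The difference in response was -6.08 (SE 0.38, adjusted p = 1.31e-10). PP7435_Chr4-0221 had 14.3, 12.4 and 7.03 CPM in acetate α-type, against 66.2, 34.1 and 62.9 CPM in YPD α-type. In acetate wild type it had 749, 1043 and 888 CPM, against 20.6, 27.5 and 27.7 CPM in YPD wild type. Every α-type library lay below all acetate wild-type libraries, with a difference of -7.40 (SE 0.66, adjusted p = 2.35e-08). The rule for naming required separate acetate libraries of these strains. Its neighbour by number, PP7435_Chr4-0222, chosen after its values were seen, also fell in α-type (log2 fold change -0.74, adjusted p = 0.00909) and rose in wild type (1.77, adjusted p = 5.9e-07).

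PP7435_Chr1-1164 was low outside acetate wild type. It had 5.72, 27.3 and 5.63 CPM in acetate α-type, against 0, 3.79 and 6.62 CPM in YPD α-type. Acetate wild type had 394, 540 and 514 CPM, at least 127-fold higher than YPD wild type with 0 counts. The difference in response passed (adjusted p = 0.0326). The fitted difference of -8.97 is no bound, since 1 group had 0 counts, and the α-type change itself did not pass (log2 fold change 1.89, SE 1.11, adjusted p = 0.106). The difference lost the threshold without the second or the third YPD α-type library (adjusted p = 0.0709 and 0.247) and without the second or the third acetate wild-type library (adjusted p = 0.0538 and 0.0512), and at equal depth (adjusted p = 0.163).

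Among the 36 features with a higher response in α-type, 16 fell in both strains, with medians of -1.59 in α-type, -3.39 in wild type and -1.54 in a-type. A further 9 fell in wild type and did not pass in α-type, 7 rose in α-type and did not pass in wild type, 3 rose in α-type and fell in wild type, and 1 rose in both. The 3 that went opposite ways are weakly based, and the pair described first was chosen after its values were seen. PP7435_Chr3-0712 had 2908, 2807 and 2686 CPM in acetate α-type, against 1686, 2453 and 1477 CPM in YPD α-type, and 1708, 1932 and 1757 CPM in acetate wild type, against 2783, 3041 and 2049 CPM in YPD wild type. The difference was 1.13 (SE 0.30, adjusted p = 0.0299). PP7435_Chr1-0884 had 50.05, 50.8 and 40.8 CPM in acetate α-type, against 25.2, 30.3 and 16.6 CPM in YPD α-type, and 34.5, 21.9 and 23.5 CPM in acetate wild type, against 54.8, 51.5 and 36.9 CPM in YPD wild type, a difference of 1.82 (SE 0.51, adjusted p = 0.0365). The difference for PP7435_Chr3-0712 lost the threshold without any 1 library except the second YPD α-type and the third YPD wild-type one, with adjusted p up to 0.0902. That for PP7435_Chr1-0884 lost it without any 1 library except the second YPD α-type, the third acetate α-type, the third YPD wild-type and the first acetate wild-type ones, with adjusted p up to 0.11. The rises in α-type alone (adjusted p = 0.0304 and 0.0305) reached adjusted p of 0.174 and 0.156 without the third YPD α-type library. At equal depth the log2 fold change of PP7435_Chr1-0884 in α-type was 0.10 (adjusted p = 0.928), against 0.98 at full depth, and its difference from wild type had an adjusted p of 0.521. That of PP7435_Chr3-0712 had an adjusted p of 0.067 at equal depth.

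The third, PP7435_Chr4-0072, is uncertain. It had 309, 146 and 131 CPM in acetate α-type, against 50.4, 37.9 and 36.4 CPM in YPD α-type, and 0 counts in acetate wild type, against 34.3, 44.7 and 50.8 CPM in YPD wild type. Its reads can be divided with PP7435_Chr4-0003, of nearly equal length, which had the same values in the YPD α-type libraries. With both summed, a step chosen after their values were seen, the difference in response was 0.00 (adjusted p = 0.999), against 9.59 for PP7435_Chr4-0072 alone. PP7435_Chr2-0063 had a difference of 3.94 (SE 1.01, adjusted p = 0.0133), with 24.3, 21.1 and 40.8 CPM in acetate α-type, against 6.30, 11.4 and 9.93 CPM in YPD α-type. In wild type it had 14.1, 9.12 and 11.8 CPM in acetate, against 24.0, 17.2 and 148 CPM in YPD. The last library stood far above the others, and without it the difference was 2.39 (adjusted p = 0.11). With voom and a spread for each medium the adjusted p was 0.0777.

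**Figure D4:**
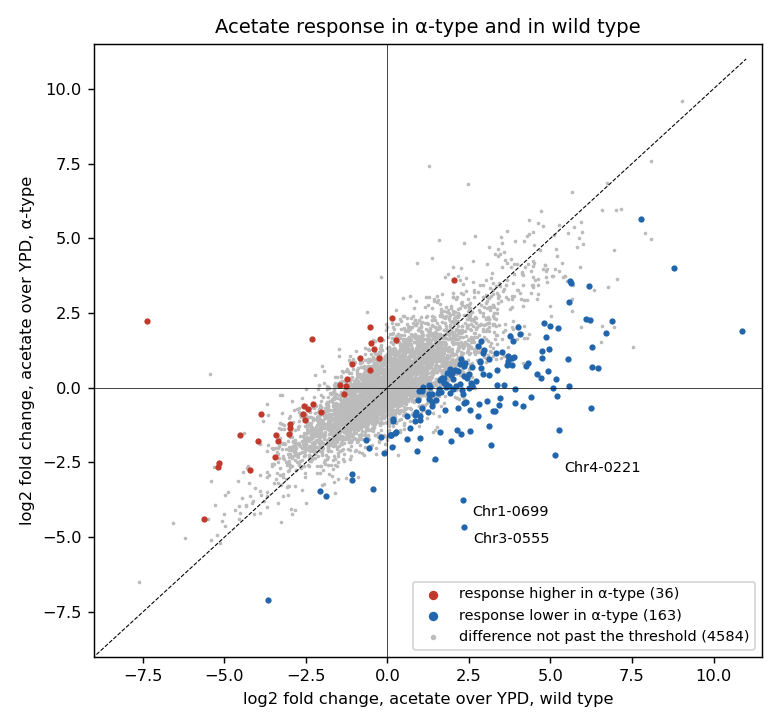
Log2 fold change, acetate over YPD, in α-type (vertical) against wild type (horizontal) for the 4783 features tested; each point is 1 feature, coloured where the responses differed by the interaction test, and the dashed line marks equal responses. The 163 features with a lower response in α-type lie under the line, most of them where wild type rose.

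Between α-type and a-type, the strains with a single mating type, few differences in response passed the test. The response was higher in α-type for 5 features, 0.105% of those tested, and lower for 2, 0.0418%. Of the 4783 features tested, 157 had an unadjusted p under 0.05 in either direction. That is fewer than this threshold would let pass on average if no response differed. This comparison and that with wild type share the α-type libraries. All 7 features are described, of which PP7435_Chr3-1699, PP7435_Chr3-0319 and PP7435_Chr3-1710 were chosen after their values were seen.

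PP7435_Chr2-0522, the feature that rose most in α-type, had 40.7, 40.9 and 53.2 CPM in acetate a-type, against 39.7, 38.1 and 23.7 CPM in YPD a-type. It stayed low in every a-type library, and the difference in response was 9.21 (SE 0.45, adjusted p = 4.86e-13). In wild type it reached 15432, 10901 and 13505 CPM in acetate, against 24.0, 17.2 and 36.9 CPM in YPD, and the 95% interval of the difference from wild type ran from -0.37 to 1.52. PP7435_Chr2-0521 was low in both media in a-type, at 94.6, 59.3 and 71.9 CPM in acetate and 136, 46.3 and 54.3 CPM in YPD, a difference of 6.003 (SE 0.48, adjusted p = 2.13e-08). Its acetate level in wild type, 11465, 13750 and 13089 CPM, lay above that of α-type in every library, though the difference in response of -1.06 did not pass (SE 0.46, adjusted p = 0.233).

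PP7435_Chr3-1710, the shortest of the 7 at 312 bases, had 1084, 906 and 917 CPM in acetate α-type, against 56.7, 68.1 and 43.0 CPM in YPD α-type. In a-type it had 75.7, 96.0 and 104 CPM in acetate, against 46.3, 32.7 and 78.0 CPM in YPD. Of these libraries the acetate α-type ones alone were high, and the difference was 3.29 (SE 0.41, adjusted p = 3.98e-05). Wild type had 2583 ± 341 CPM in acetate and 90.3 ± 24.2 CPM in YPD (SD, n = 3 each). PP7435_Chr3-0319 had 1687, 1686 and 1747 CPM in acetate α-type, against 126, 208 and 99.3 CPM in YPD α-type. In a-type it had 116, 138 and 105 CPM in acetate, against 82.8, 117.2 and 166 CPM in YPD, and these overlap. Its response was higher in α-type than in a-type by 3.59 (SE 0.43, adjusted p = 3.21e-05) and lower than in wild type by a difference of -2.02 (SE 0.43, adjusted p = 0.00456), where it had 5977 ± 492 CPM in acetate and 121 ± 61.0 CPM in YPD (SD, n = 3 each).

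PP7435_Chr3-1699 had 2492, 2887 and 2613 CPM in acetate α-type, against 25.2, 34.1 and 9.93 CPM in YPD α-type. In a-type it had 106, 124 and 82.0 CPM in acetate, against 26.5, 5.45 and 10.2 CPM in YPD, so it rose in both strains. The difference was 3.94 (SE 0.65, adjusted p = 0.00752). Without the first YPD a-type library it was 3.12 with an adjusted p of 0.717. It also lost the threshold with voom and a spread for each medium (adjusted p = 0.0648) and at equal depth (adjusted p = 0.253). Against wild type, with 3413 ± 350 CPM in acetate and 32.9 ± 20.7 CPM in YPD, the 95% interval of the difference was -1.08 to 1.31.

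The 2 features with a lower response in α-type rose in both other strains. PP7435_Chr3-2788 had 177, 170 and 163 CPM in acetate α-type, against 192, 114 and 212 CPM in YPD α-type. In acetate a-type it had 979, 896 and 733 CPM, against 119, 106 and 163 CPM in YPD a-type. The α-type groups overlap and the a-type groups do not, and the difference was -2.78 (SE 0.34, adjusted p = 3.61e-05). Against wild type, with 539 ± 44.5 CPM in acetate and 180 ± 18.6 CPM in YPD, it was -1.61 (SE 0.34, adjusted p = 0.005), and at equal depth its adjusted p was 0.0733. PP7435_Chr3-0313 had 12.9, 14.9 and 9.85 CPM in acetate α-type, against 12.6, 26.5 and 23.2 CPM in YPD α-type, and 105, 130 and 89.2 CPM in acetate a-type, against 9.93, 19.1 and 20.3 CPM in YPD a-type. Its difference was -3.38 (SE 0.67, adjusted p = 0.0228), and it rests on 28 counts in acetate α-type. It lost the threshold without any 1 of 6 libraries, with adjusted p up to 0.133: the second or the third YPD α-type, the first or the third acetate α-type, the first YPD a-type and the second acetate a-type library. With voom and a spread for each medium the adjusted p was 0.241, and at equal depth 0.838.

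**Figure D5:**
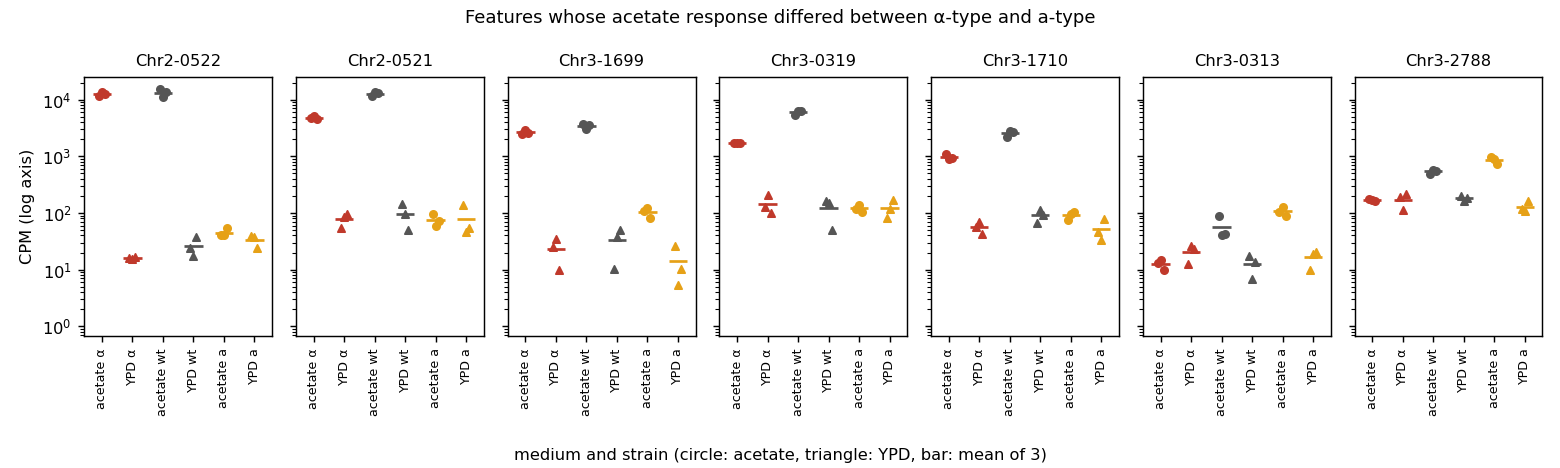
Level (CPM, log axis) of the 7 features whose acetate response differed between α-type and a-type, in every library of α-type (red), wild type (grey) and a-type (yellow); circles are acetate, triangles YPD, and bars the means of 3 libraries. In the first 5 panels acetate α-type lies far above acetate a-type, at 12522 against 45.0 CPM for PP7435_Chr2-0522, and in the last 2 below it.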

How the data were processed

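RNA was measured in 18 libraries of 6 groups, grouped by their titles. For each library the authors deposited estimated counts (kallisto, per the file headers) and TPM, also per the file headers. Tools in the submitters' processing notes, in no stated role, are kallisto, TopHat2, SAMtools, DESeq2, Trim Galore 0.4.2 and FastQC 0.11.2. Genome build: not given in the sources used here. Kallisto divides a read among transcripts it matches, so near-identical features are uncertain. The authors also deposited normalized counts, a signal scaled between the 6 α-type libraries per the file name, used in 1 alternative with limma 3.58.1.

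Estimated counts (0.749% of them not whole) were rounded and tested in edgeR 4.0.16 (R 4.3.3): filterByExpr, which kept 4783 of 5341 features, TMM scaling, 1 mean per group over the 18 libraries, quasi-likelihood tests and Benjamini-Hochberg adjustment over all features tested, threshold 0.05. CPM uses TMM library sizes. Standard errors and 95% intervals come from the fit, and floors (3 counts) cover counting error only. The step was also run on simulated data that had 1 spread per feature for all groups. Those data do not cover the unequal spread of acetate and YPD seen here. TPM served for shares and for levels between features. Coding lengths are multiples of 3 in 99.9% of features.

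The comparison and the rules for naming features were chosen with earlier results of these data known. The rules name at most 2 rising and 2 falling IDs for the change in CPM (at least 10 CPM), the change in TPM, detection in 1 medium alone, steadiness, and the interaction with each other strain. For the changes in CPM and TPM, the acetate and YPD libraries of α-type also had to be separate. For the interactions, the acetate libraries of the strains compared had to be separate. IDs chosen later are marked. Gene lists and mating-type markers had been written down, but 0 IDs could be matched to them, so they were not used. Alternatives were fitting the 6 libraries alone, DESeq2 1.42.0, limma voom, upper-quartile and RLE scaling, no filter, equal depth, a replicate block, a test against a log2 fold change of 1 and leaving out replicates. The normalized counts, leaving out wild-type and a-type replicates and a summed pair of features were added after seeing the data.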

Additional observations from a re-analysis of the deposited data

Results flagged for a closer look

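The acetate response of α-type differed from that of another strain, by a test of the difference itself. It was higher than in wild type for 36 features and lower for 163, and higher than in a-type for 5 features and lower for 2.

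Against wild type, α-type showed a lower response for PP7435_Chr3-0555 (log2 difference -6.99), PP7435_Chr1-0699 (-6.08), PP7435_Chr4-0221 (-7.40) and its neighbour PP7435_Chr4-0222 (-2.51), which fell in α-type and rose in wild type. It was also lower for PP7435_Chr4-0656 (-3.45), which fell in both, for PP7435_Chr3-0319 (-2.02), which rose in both, and for PP7435_Chr3-2788 (-1.61) and PP7435_Chr3-0313 (-2.87), which rose in wild type. The value for PP7435_Chr3-0313 lost the threshold without the third YPD α-type library (adjusted p = 0.0515) and at equal depth (adjusted p = 0.0817). It also lost it with voom and a spread for each medium (adjusted p = 0.0948). The value for PP7435_Chr3-2788 lost the threshold at equal depth (adjusted p = 0.0733). On the higher side 4 named features passed, and each lost the threshold under an alternative. PP7435_Chr4-0072 (9.59) had a difference of 0.00 (adjusted p = 0.999) when summed with PP7435_Chr4-0003. PP7435_Chr2-0063 (3.94) lost it without the third YPD wild-type library (adjusted p = 0.11), and PP7435_Chr3-0712 (1.13) and PP7435_Chr1-0884 (1.82) lost it without most single libraries and at equal depth (adjusted p = 0.067 and 0.521). For PP7435_Chr4-0072 and for PP7435_Chr1-1164 (-8.97) a wild-type group had 0 counts, so the fitted value is no bound, and that of PP7435_Chr1-1164 lost the threshold at equal depth (adjusted p = 0.163).

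Against a-type the log2 differences were 9.21 for PP7435_Chr2-0522, 6.0 for PP7435_Chr2-0521, 3.94 for PP7435_Chr3-1699, 3.59 for PP7435_Chr3-0319, 3.29 for PP7435_Chr3-1710, -3.38 for PP7435_Chr3-0313 and -2.78 for PP7435_Chr3-2788. Of these, PP7435_Chr3-1699 and PP7435_Chr3-0313 lost the threshold at equal depth (adjusted p = 0.253 and 0.838), with voom (adjusted p = 0.0648 and 0.241) and without single libraries.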

How the results depend on the processing

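The counts of 1066 higher and 938 lower features were 679 and 690 at equal depth and 456 and 349 against a log2 fold change of 1, and 856 to 951 and 820 to 932 when an α-type library was left out. The share of higher calls ran from 49.6% to 56.6% over the other settings, so the larger direction changed with the processing. The normalized counts gave 1036 and 924, of which 990 and 847 were the same features.

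Against wild type, 36 and 163 became 58 and 235 with DESeq2, 68 and 119 with upper-quartile scaling, 27 and 94 at equal depth and 3 and 61 against a log2 fold change of 1, and leaving out 1 library gave 22 to 65 and 114 to 193. In place of 18, 14 to 21 features fell in α-type and rose in wild type, but 4 against a log2 fold change of 1. They were not all the same features. At equal depth 12 of the 15 were among the 18, and without the second YPD wild-type library 14 of the 21. Against a-type, DESeq2 gave 11 in place of 5, and voom, equal depth and a log2 fold change of 1 gave 1 in place of 2, as did leaving out any of 6 libraries (5 to 7 and 1 to 2).

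A replicate block gave 964 and 821 features, and 22 and 114 against wild type. Whether the numbers pair the samples cannot be decided from 3 libraries per group. Same-numbered α-type libraries correlated at -0.06 to -0.00033 in their deviations from the group mean, and none correlated best with its own number. The third acetate wild-type library (0.0214) and the first and second acetate a-type libraries (0.056 and 0.038) did, while the other wild-type and a-type ones did not. The share of TPM in the 10 most abundant features differed by -9.10 to -8.35 points between acetate and YPD without 1 library, and in the 100 most abundant by -8.90 to -7.85.

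For single features, 1475 of the alternative values kept their side of the threshold, 72 lost the threshold and 5 gained it. Of values past the threshold in the main or the alternative fit, 0 changed sign. Changes of sign among values past it in neither fit were not counted. Depth limits YPD most, where a count of 0 in a library allows 9.45 to 11.4 CPM.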
